A study of Mus musculus with 9 samples.

Results

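WNT signalling was followed through 10 genes: the ligand gene Wnt5a, the secreted antagonist genes Sfrp1, Sfrp2, Dkk2 and Dkk3, the feedback gene Axin2, and the genes of the DNA-binding TCF/LEF factors Lef1, Tcf7, Tcf7l1 and Tcf7l2. They were chosen by symbol, and an array row was taken only where the probe table gave it that symbol and no other. This left 9 of the 10 listed genes, out of 19937 genes in all, each with 1 row. Tcf7 had no such row and was not analysed here.

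WNT proteins are secreted ligands that bind Frizzled receptors together with LRP co-receptors or with receptors such as ROR and RYK. In the beta-catenin branch, binding halts a destruction complex built on Axin, Apc and Gsk3, beta-catenin accumulates, and in the nucleus it joins TCF/LEF factors that otherwise sit on DNA with Groucho (Tle) co-repressors. Wnt5a is best known for beta-catenin-independent signalling, SFRP and most DKK proteins hold the pathway back outside the cell, and Axin2 is a target of beta-catenin that restrains it in turn. In mouse embryonic stem cells Tcf7l1 is known as a repressor of pluripotency genes, and beta-catenin signalling relieves that repression.

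The study took mouse cells through secondary reprogramming. All 3 groups carry the strain label OG2-GFP/Rosa26-M2rtTA. The fibroblasts were at passage 4 and came from mice made with TSKM iPS cells, in which doxycycline switches on introduced Tet1, Sox2, Klf4 and c-Myc. TSKM-3D cells were such fibroblasts at passage 4 after 3 days of doxycycline, and at that point they were also moved out of feeder medium into embryonic stem cell medium with LIF, so agent and medium changed together. The iPS cells were a line from the same system at passages 10 to 15. They were kept on mitomycin-treated embryonic fibroblast feeders, and plating for 0.5 h was used to take feeders out before RNA was made. There were 3 arrays per group, and nothing in the labels says that the 3 came from separate cultures, so each p-value reflects only how far these arrays scatter, and that scatter may be technical.

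TCF/LEF factors recognise a short core, and the promoter windows of the members were searched for it. The core was taken as CTTTGAT or CTTTGTT on either strand, 2 forms that cannot match at the same position of a strand, in RefSeq windows (GRCm38.p6) of 250 bases before to 50 bases after a transcript start. Of the 10 listed genes 7 had a window, and 1 of these 7, Tcf7l2, held the core, in 1 of its windows. Over all genes with a window 10.6% held it, and over all windows 9.33%. A match is a description of letters, not a binding site, and no match says only that these letters are not in that window. The 250 bases before the start are printed 5′ to 3′, with the core in capitals, for the core-holding Tcf7l2 window at chr19:55895071-55895320 (plus strand), for the Axin2 window at chr11:108920099-108920348 (plus strand), since Axin2 was the member called higher in iPS cells than in fibroblasts, and for the Sfrp2 window at chr3:83766071-83766320 and the Dkk2 window at chr3:132085042-132085291 (both plus strand), since these antagonist genes fell in both steps. The Tcf7l2 core begins at position -14, counted back from the transcript start.
Tcf7l2: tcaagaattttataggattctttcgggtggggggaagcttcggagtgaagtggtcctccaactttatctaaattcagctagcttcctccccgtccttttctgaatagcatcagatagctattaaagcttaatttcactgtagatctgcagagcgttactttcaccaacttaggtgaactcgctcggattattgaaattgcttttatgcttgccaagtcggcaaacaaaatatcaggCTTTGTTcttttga
Axin2: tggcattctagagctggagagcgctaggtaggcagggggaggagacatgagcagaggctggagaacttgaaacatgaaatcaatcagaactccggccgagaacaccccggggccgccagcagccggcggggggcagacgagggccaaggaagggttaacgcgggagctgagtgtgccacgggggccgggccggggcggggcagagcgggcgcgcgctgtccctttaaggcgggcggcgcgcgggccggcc
Sfrp2: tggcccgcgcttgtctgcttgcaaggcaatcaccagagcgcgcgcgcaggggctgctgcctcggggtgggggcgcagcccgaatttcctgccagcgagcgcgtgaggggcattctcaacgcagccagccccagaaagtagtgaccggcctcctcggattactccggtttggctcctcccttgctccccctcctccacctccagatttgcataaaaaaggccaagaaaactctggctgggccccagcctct
Dkk2: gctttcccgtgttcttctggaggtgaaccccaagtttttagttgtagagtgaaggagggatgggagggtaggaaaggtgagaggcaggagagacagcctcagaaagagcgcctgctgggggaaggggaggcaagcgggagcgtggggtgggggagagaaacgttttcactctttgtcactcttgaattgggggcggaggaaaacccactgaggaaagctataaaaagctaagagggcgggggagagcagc

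Values are log2 expression values as deposited, and a difference of 1 is a 2-fold change. A gene was called when its limma test, Benjamini-Hochberg adjusted over all 19937 genes, gave an adjusted p under 0.05 with a change of 2-fold or more. The third fibroblast array carries a cell type label of 3-day induced cells, while 3 other labels of it (title, source, passage) are those of fibroblasts. Across genes its correlation with the other fibroblast arrays was 0.9978 to 0.9984, and with TSKM-3D arrays it was 0.9509 to 0.9548. It was counted among the fibroblasts, and without it the same numbers of members were called in each comparison (4, 5 and 7). Of the introduced factors Myc rose by 1.60 and Sox2 by 1.39 in TSKM-3D cells against fibroblasts, Klf4 differed by 0.04, and Tet1 went against the label, at 6.97 in TSKM-3D cells and 8.10 in fibroblasts (limma adjusted p = 1.79e-07, though not called after quantile normalization). Introduced and endogenous transcripts were not told apart. The fibroblast mean of Sox2 (5.15) lay below the median of all rows, so the size of its rise is uncertain. Of 10 pluripotency markers 10 rose in iPS cells against fibroblasts, where 7.63% of all genes were called higher. Of 10 fibroblast markers 8 fell in that comparison, where 13.8% of all genes were called lower.

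Of the 9 members, 6 had their highest mean in fibroblasts and their lowest in iPS cells. Against fibroblasts, 6 of the 9 members fell in iPS cells (Wnt5a, Sfrp1, Sfrp2, Dkk2, Dkk3 and Tcf7l2), where 13.8% of all genes were called lower, and Axin2 rose, where 7.63% of all genes were called higher. In bulk cultures such as these, fewer cells of a type and less RNA per cell cannot be told apart. Lef1 and Tcf7l1 passed the adjusted p but not the 2-fold requirement. The median difference of the members was -1.92, beside 0.05 over all genes. For all 9 members the iPS arrays lay outside the range of the fibroblast arrays, as they did for 65% of all genes, and all 9 had an adjusted p under 0.05, as 54.6% of all genes did.

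The change came in different steps for different members. In TSKM-3D cells against fibroblasts, 4 members fell (Sfrp2, Dkk2, Dkk3 and Tcf7l1), where 7.58% of all genes were called lower. No member was called higher, where 3.25% of all genes were. By adjusted p under 0.05 alone 8 members passed, all but Lef1, against 44.6% of all genes, and the same 8 had arrays that did not overlap between the groups, against 53.1% of all genes. In iPS cells against TSKM-3D cells, 4 members fell (Wnt5a, Sfrp2, Dkk2 and Tcf7l2), where 8.57% of all genes were called lower, and Tcf7l1 rose, where 6.48% were called higher. All 9 passed the adjusted p alone, against 45.6% of all genes, and in all 9 the arrays did not overlap, against 49.5%. Both steps share the TSKM-3D arrays.

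**Figure D1:**
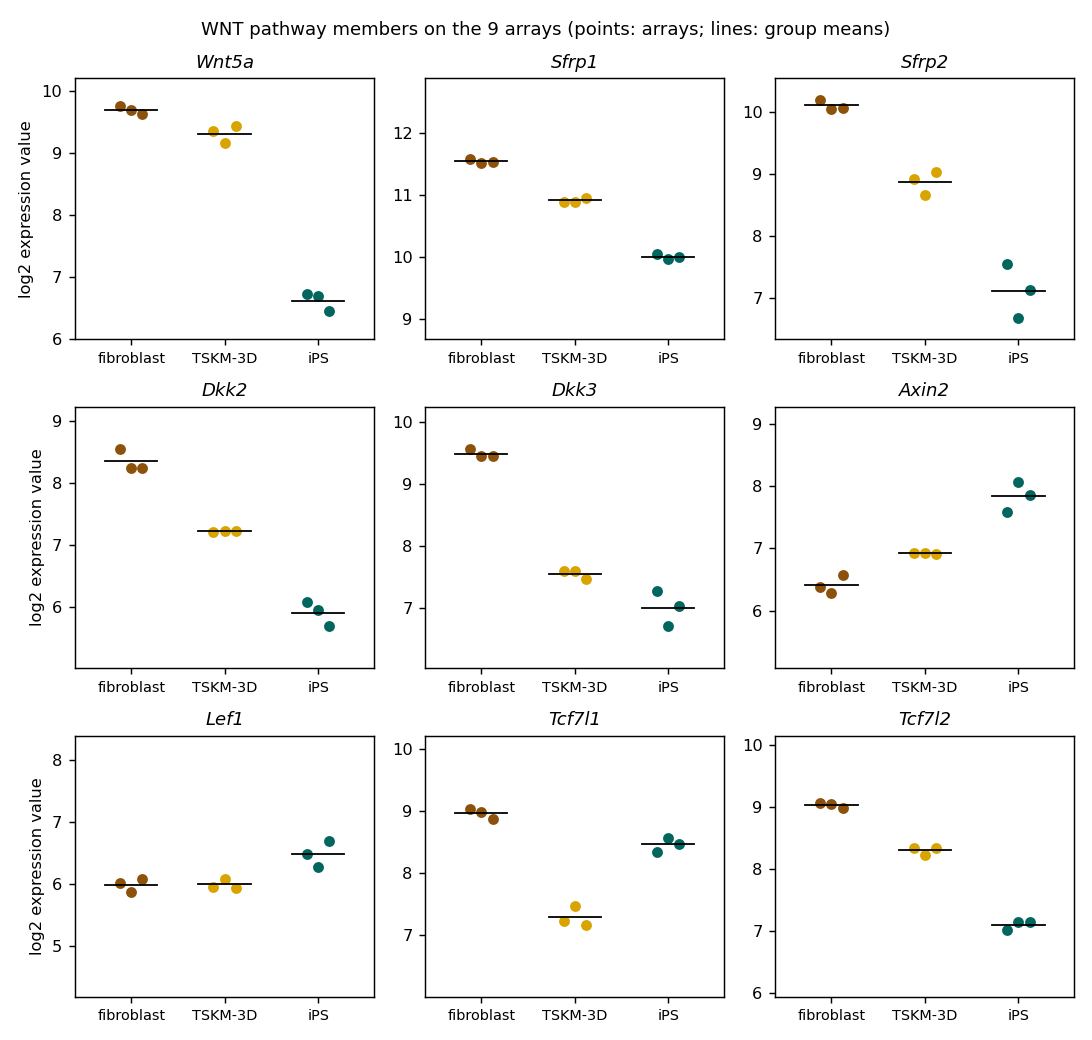
Log2 expression value (y axis, every panel spanning the same number of log2 units) of the 9 measured members on each array, in fibroblasts, TSKM-3D cells and iPS cells; points are single arrays and lines are group means. Wnt5a stays near its fibroblast level in TSKM-3D cells and drops in iPS cells, Dkk3 drops in TSKM-3D cells, Tcf7l1 is lowest in TSKM-3D cells, and Axin2 is highest in iPS cells.

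Wnt5a read 9.75, 9.69 and 9.63 on the fibroblast arrays, 9.35, 9.16 and 9.43 on the TSKM-3D arrays and 6.73, 6.69 and 6.45 on the iPS arrays. The groups did not overlap, but the TSKM-3D arrays stood close to the fibroblast arrays and the iPS arrays far below both. In TSKM-3D cells against fibroblasts the difference was -0.38 ± 0.10 (SE, n = 3 arrays per group; limma adjusted p = 0.00887), under the 2-fold requirement. Wnt5a in iPS cells against TSKM-3D cells fell by 2.69 ± 0.10 (6.45-fold; limma adjusted p = 1.33e-09), a change that 1.8% of all genes equalled or exceeded in size. Against fibroblasts it fell by 3.07 ± 0.10, or 8.38-fold (limma adjusted p = 2.7e-10). The second step was larger than the first by a test of the steps' difference (-2.31 ± 0.17; limma adjusted p = 7.02e-07), a test that 42.7% of all genes passed.

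Few other ligand genes were called, and the mean over their list lay near the median of all rows. On the 9 arrays the mean over 18 further WNT ligand genes was 6.14 to 6.57, beside a median of all rows of 6.014 to 6.231. In fibroblasts the means of single ligand genes ran from 4.52 to 7.53, on both sides of that median. A change in rows near or below it may not show. Of 18 further WNT ligand genes 0 were called in TSKM-3D cells against fibroblasts, where 3.25% of all genes were called higher and 7.58% lower. Before adjustment 3 had a limma p under 0.05, and Wnt2b and Wnt16 also passed after it (limma adjusted p = 0.0023 and 0.000496). Both stayed under 2-fold. In iPS cells against fibroblasts it was again 0, where 7.63% of all genes were called higher and 13.8% lower. The 6 with a limma p under 0.05 before adjustment also had an adjusted p under 0.05 and missed only the 2-fold requirement. Wnt16 alone of the 18 fell in iPS cells against TSKM-3D cells, where 8.57% of all genes were called lower. Its fall was 1.05 ± 0.12 (6.08 in iPS cells and 7.13 in TSKM-3D cells, limma adjusted p = 1.67e-05). The genes that handle ligands before release moved in opposite directions. Wls, which carries WNT proteins to the cell surface, averaged 8.56 in iPS cells against 11.36 in TSKM-3D cells and fell by 2.80 ± 0.10 (limma adjusted p = 8.75e-10). Porcn, which attaches the lipid that WNT proteins need, averaged 8.77 in iPS cells against 7.20 in TSKM-3D cells and rose by 1.57 ± 0.12 (limma adjusted p = 5.76e-07). Among the R-spondins, secreted enhancers of WNT receptor level, Rspo3 fell by 1.60 ± 0.15 between the same groups (limma adjusted p = 2.45e-06), and Rspo2 fell to 5.27 in iPS cells, against 6.47 in fibroblasts (limma adjusted p = 1.47e-06). The iPS means of Wnt16, Rspo3 and Rspo2 lay below the median of all rows on the iPS arrays (6.204 to 6.231). The sizes of their falls are therefore uncertain. Of these 6 secretion and R-spondin genes 0 were called in TSKM-3D cells against fibroblasts. A limma p under 0.05, both before and after adjustment, was found for 3 of them, under 2-fold.

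Sfrp1 and Sfrp2 encode secreted Frizzled-related proteins, which bind WNT ligands. Sfrp1 read 11.59, 11.53 and 11.54 on the fibroblast arrays, 10.89, 10.90 and 10.95 on the TSKM-3D arrays and between 9.98 and 10.05 on the iPS arrays. Its groups were tight and stepped down without overlap. Sfrp1 fell by 1.54 ± 0.07 in iPS cells against fibroblasts (2.92-fold; limma adjusted p = 2.76e-09), while neither step alone reached 2-fold, at -0.64 ± 0.07 for TSKM-3D cells against fibroblasts and -0.91 ± 0.07 for iPS cells against TSKM-3D cells (limma adjusted p = 1.14e-05 and 4.26e-07). With array medians set equal the second of these was -1.02 and was called. The difference between the steps did not pass the test (-0.27 ± 0.12; limma adjusted p = 0.0912).

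Sfrp2 read 10.19, 10.04 and 10.06 on the fibroblast arrays, 8.91, 8.65 and 9.02 on the TSKM-3D arrays and 7.55, 6.68 and 7.12 on the iPS arrays. The groups did not overlap, and the iPS arrays were the most scattered of any member and group (SD 0.44, n = 3). It fell in both steps, with differences of -1.24 ± 0.18 in TSKM-3D cells against fibroblasts and -1.75 ± 0.18 in iPS cells against TSKM-3D cells (limma adjusted p = 0.000135 and 6.37e-06). Against fibroblasts the iPS level fell by 2.98 ± 0.18, or 7.91-fold (limma adjusted p = 3.97e-08). The steps' difference was -0.51 ± 0.31 (limma adjusted p = 0.223).

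Dkk2 and Dkk3 belong to the Dickkopf family of secreted proteins. Dkk2 binds the LRP co-receptors, whereas Dkk3 is a divergent member whose part in WNT signalling is less clear. Dkk2 read 8.55, 8.25 and 8.25 on the fibroblast arrays, 7.21, 7.22 and 7.22 on the TSKM-3D arrays and 6.09, 5.96 and 5.69 on the iPS arrays. The groups did not overlap. Dkk2 fell in both steps, with differences of -1.13 ± 0.11 in TSKM-3D cells against fibroblasts and -1.31 ± 0.11 in iPS cells against TSKM-3D cells (limma adjusted p = 7.39e-06 and 1.56e-06). After quantile normalization the first of these was -0.99 and was not called. Over the whole course Dkk2 fell by 2.43 ± 0.11 in iPS cells against fibroblasts (limma adjusted p = 4.69e-09). Its iPS mean of 5.91 lay below the median of all rows on those arrays (6.204 to 6.231), background signal was not analysed here, and the size of this fall is therefore uncertain.

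Dkk3 read 9.56, 9.45 and 9.44 on the fibroblast arrays, 7.59, 7.59 and 7.47 on the TSKM-3D arrays and 7.27, 6.70 and 7.03 on the iPS arrays. The TSKM-3D arrays lay near the iPS arrays and well below the fibroblast arrays. In TSKM-3D cells against fibroblasts Dkk3 fell by 1.93 ± 0.12 (3.82-fold; limma adjusted p = 1.69e-07), the largest fall of the 9 members in that comparison and a size that 1.97% of all genes equalled or exceeded. The further difference in iPS cells against TSKM-3D cells was -0.55 ± 0.12 (limma adjusted p = 0.00283), under the 2-fold requirement. The first step was the larger by the test of the steps' difference (1.38 ± 0.21; limma adjusted p = 0.000232), and it made up 77.8% of the whole change of -2.48 ± 0.12 in iPS cells against fibroblasts. For Wnt5a the first step made up 12.3%.

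Exact ties touch these tests. Of the 3 TSKM-3D arrays 2 held exactly equal values for Dkk2, for Dkk3 and for Tcf7l2, and the TSKM-3D SD was 0.01 for Dkk2 and for Axin2. Among other genes with printed p-values, the TSKM-3D SD was 0.00 for Fzd1, Bcl9l and Rspo2 and 0.01 for Kremen1. Spread may be understated there, and p-values of all these genes may be too low.

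A list of 13 other genes, of antagonists and their relatives, held secreted proteins and 3 membrane proteins (Kremen1, Kremen2 and Apcdd1). Whether Dkkl1, a Dickkopf-like gene on it, dampens the pathway was not tested. In TSKM-3D cells against fibroblasts 2 of the 13 were called higher, both secreted, and 1 lower, the membrane protein gene Kremen1. The median difference was 0.12, beside 0.05 over all genes, of which 3.25% were called higher and 7.58% lower. Sostdc1, which encodes a secreted antagonist of WNT and BMP signals, read 10.14, 9.95 and 10.23 on the TSKM-3D arrays against 5.20, 5.04 and 5.21 on the fibroblast arrays, and 5.47, 5.24 and 5.32 on the iPS arrays. Its high level was thus found on the TSKM-3D arrays alone of the 3 groups (4.96 ± 0.10 against fibroblasts and -4.76 ± 0.10 for iPS cells against TSKM-3D cells; limma adjusted p = 7.9e-11 and 2.2e-11). Sfrp4, another Frizzled-related gene, also rose in TSKM-3D cells against fibroblasts, by 1.16 ± 0.15 (5.98 in TSKM-3D cells and 4.82 in fibroblasts; limma adjusted p = 5.23e-05). Both means lay below the median of all rows, 6.014 to 6.196 on TSKM-3D arrays and 6.039 to 6.054 on fibroblast arrays. The size of this rise is therefore uncertain. So are the sizes of both Sostdc1 changes, as its fibroblast and iPS means (5.15 and 5.34) lay below the median of all rows. Kremen1, a receptor through which DKK proteins act on LRP, fell by 1.05 ± 0.12 between the same groups (limma adjusted p = 2.58e-05), a call lost after quantile normalization. Dkkl1 and Notum in iPS cells against fibroblasts rose, by 1.80 ± 0.12 and 1.53 ± 0.14, and Frzb and Kremen1 fell, with differences of -1.83 ± 0.10 and -1.58 ± 0.12 (limma adjusted p at most 1.37e-06). The fibroblast means of Dkkl1 (5.36) and Notum (5.79) and the iPS mean of Frzb (4.90) lay below the median of all rows. For these 3 genes the size of the change is uncertain. Notum encodes an enzyme that strips the lipid from WNT proteins, and Frzb another Frizzled-related protein. Over all genes 7.63% were called higher and 13.8% lower in iPS cells against fibroblasts. Dkk1, the best known Dickkopf gene, averaged 6.07 in iPS cells, against 5.58 in fibroblasts, and was not called.

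**Figure D2:**
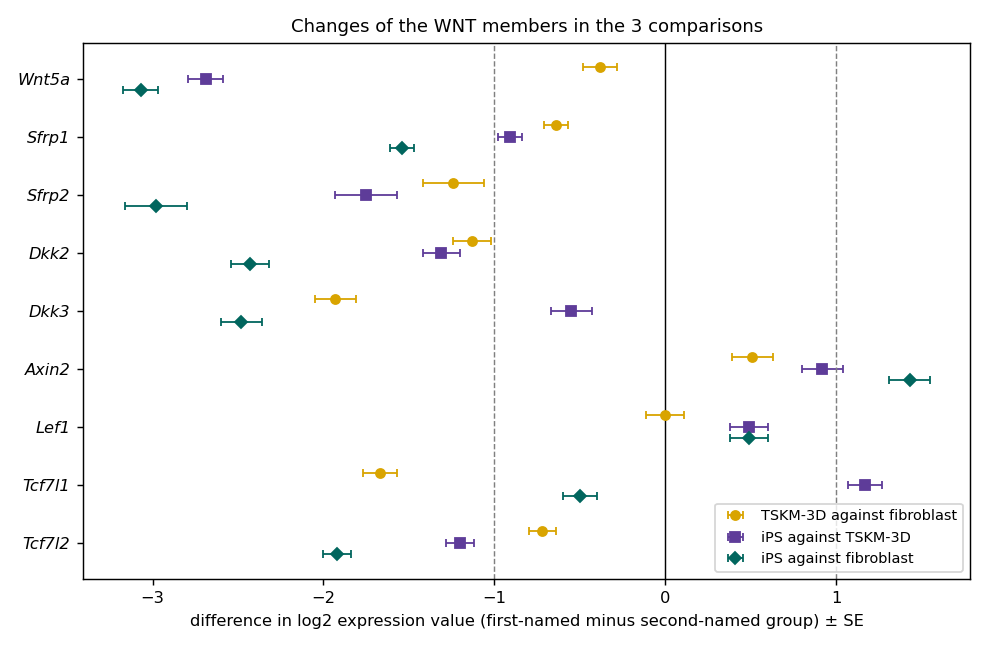
Difference in log2 expression value (x axis, with SE bars) of each member (rows) in TSKM-3D cells against fibroblasts (circles), iPS cells against TSKM-3D cells (squares) and iPS cells against fibroblasts (diamonds); dashed lines mark 2-fold. The antagonist genes lie left of 0 in all 3 comparisons, Axin2 lies right of 0 in all 3, and Tcf7l1 has its 2 steps on opposite sides of 0.

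Receptor genes changed in both directions. Of 21 receptor and receptor-regulating genes 5 were lower and 0 higher in TSKM-3D cells against fibroblasts, and 2 of these 5 were lower after quantile normalization. Over all genes 7.58% were called lower and 3.25% higher in that comparison. In iPS cells against fibroblasts 5 were lower and 2 higher, beside 13.8% of all genes called lower and 7.63% called higher. The Frizzled genes Fzd2 and Fzd1 fell in both steps (the first step of Fzd1 was not called after quantile normalization). Fzd2 averaged 6.67 in iPS cells against 9.87 in fibroblasts and Fzd1 averaged 7.20 against 9.81 (limma adjusted p = 5.65e-11 and 1.25e-10). Fzd5 and Fzd10 rose in iPS cells against fibroblasts, by 2.04 ± 0.10 and 1.62 ± 0.11 (limma adjusted p = 9.19e-09 and 8.27e-08). The fibroblast mean of Fzd10, 5.67, lay below the median of all rows on those arrays (6.039 to 6.054), so the size of its rise is uncertain. Fzd3 fell by 1.40 ± 0.11 in iPS cells against TSKM-3D cells (limma adjusted p = 6.44e-07), where its mean was 6.21 in iPS cells and 7.61 in TSKM-3D cells. Ryk, a WNT-binding receptor-like kinase gene, fell by 1.97 ± 0.08 in iPS cells against fibroblasts (limma adjusted p = 1.8e-09), while Ror2, a receptor for Wnt5a, differed by -0.26 ± 0.10 (limma adjusted p = 0.0515).

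Of the 21 receptor genes Lgr5 changed most in both comparisons with fibroblasts. It encodes an R-spondin receptor and is itself a beta-catenin target in several tissues. Lgr5 read 5.98, 5.80 and 5.86 on the TSKM-3D arrays, against 9.14, 9.11 and 8.90 on the fibroblast arrays. It fell by 3.17 ± 0.11 (limma adjusted p = 1.78e-09) and read 5.33, 5.19 and 5.55 on the iPS arrays. Its TSKM-3D and iPS levels lay below the median of all rows, which was 6.014 to 6.231 on the 9 arrays. The size of the fall is therefore uncertain. The LRP co-receptor genes moved less, with Lrp6 at -0.78 ± 0.11 and Lrp5 at -0.72 ± 0.07 in iPS cells against fibroblasts.

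Inside the cell, the beta-catenin gene stayed under the 2-fold requirement. Ctnnb1 averaged 11.49 in fibroblasts, 11.79 in TSKM-3D cells and 11.57 in iPS cells, and it was called in no comparison. Of 13 destruction complex and Dishevelled genes 3 fell in TSKM-3D cells against fibroblasts, with 0 higher. Over all genes 7.58% were called lower and 3.25% higher there. Gsk3a, a kinase gene of the complex, fell by 1.68 ± 0.09 (8.99 in TSKM-3D cells and 10.68 in fibroblasts; limma adjusted p = 3.89e-08). Dvl3, a Dishevelled gene that relays the receptor signal, differed by -1.36 ± 0.11 and Btrc, which marks beta-catenin for breakdown, by -1.06 ± 0.08 (limma adjusted p = 9.93e-07 and 4.66e-07), the Btrc call being lost after quantile normalization. Gsk3b fell by 1.08 ± 0.12 in iPS cells against fibroblasts (limma adjusted p = 8.46e-06), a call also lost after quantile normalization. In iPS cells against TSKM-3D cells 0 of the 13 were called, where 6.48% of all genes were called higher and 8.57% lower. Before adjustment 9 had a limma p under 0.05, and all of these but Tnks had an adjusted p under 0.05 as well.

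Axin2 read 6.38, 6.28 and 6.57 on the fibroblast arrays, 6.93, 6.93 and 6.91 on the TSKM-3D arrays and 7.58, 8.07 and 7.87 on the iPS arrays. Each group lay above the one before it, with no overlap. Axin2 rose by 1.43 ± 0.12 in iPS cells against fibroblasts (2.7-fold; limma adjusted p = 6.66e-07). Neither step alone was called, at 0.51 ± 0.12 for TSKM-3D cells against fibroblasts and 0.92 ± 0.12 for iPS cells against TSKM-3D cells (limma adjusted p = 0.00395 and 4.47e-05). Without the first iPS array, which read lowest of the 3, the second step was 1.05 and was called. The scaffold Axin1, its relative, averaged 7.99 in iPS cells and 8.32 in fibroblasts and was not called.

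Other listed beta-catenin targets went in both directions. Of 9 measured, 2 were higher and 2 lower in iPS cells against fibroblasts, with a median difference of -0.52, beside 0.05 over all genes. Over all genes 7.63% were called higher and 13.8% lower. Cdx1, a caudal homeobox gene, rose by 1.76 ± 0.14 and Tnfrsf19 by 1.01 ± 0.09 (limma adjusted p = 5.91e-07 and 1.04e-06), and Tnfrsf19 was not called with array medians set equal or after quantile normalization. Ccn4, a matricellular protein gene, and Nkd2, a Dishevelled-binding feedback gene, fell, with differences of -2.65 ± 0.08 and -1.11 ± 0.16 (limma adjusted p = 1.33e-10 and 7.92e-05). Sp5, a close target of beta-catenin in stem cells, averaged 6.89 in iPS cells and 5.94 in fibroblasts, a difference of 0.96 ± 0.14 (limma adjusted p = 0.000121) that stayed under 2-fold. In TSKM-3D cells against fibroblasts the list's median was 0.45, with Myc higher and Ccn4 lower. In iPS cells against TSKM-3D cells 1 of the 9 rose, Cdx1, by 1.21 ± 0.14 (limma adjusted p = 2.23e-05), and 4 fell (Myc, Nkd2, Ccnd1 and Ccn4), while Sp5 differed by 0.89 and Tnfrsf19 by 0.56. Over all genes 6.48% were called higher and 8.57% lower in that comparison. Ccnd1, the cyclin D1 gene, fell to 10.25 in iPS cells against 11.75 in TSKM-3D cells, and Nkd2 to 6.43 against 8.47 (limma adjusted p = 1.63e-08 and 5.95e-07). Myc is on this list too but was an introduced factor here.

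The TCF/LEF genes took 3 different courses. Tcf7l1 read 9.04, 8.98 and 8.87 on the fibroblast arrays, 7.22, 7.47 and 7.17 on the TSKM-3D arrays and 8.34, 8.57 and 8.47 on the iPS arrays. It was the one member that was lowest on the TSKM-3D arrays, with no overlap between any 2 groups. Tcf7l1 fell by 1.67 ± 0.10 in TSKM-3D cells against fibroblasts (3.19-fold; limma adjusted p = 9.8e-08), a size that 3.2% of all genes equalled or exceeded. It rose by 1.17 ± 0.10 in iPS cells against TSKM-3D cells (2.25-fold; limma adjusted p = 1.17e-06). The iPS level stayed below the fibroblast level by less than 2-fold (-0.50 ± 0.10; limma adjusted p = 0.00102). The second step differed from the first by 2.84 ± 0.17 (limma adjusted p = 1.28e-07).

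Tcf7l2 read 9.07, 9.04 and 8.98 on the fibroblast arrays, 8.34, 8.23 and 8.34 on the TSKM-3D arrays and 7.01, 7.15 and 7.15 on the iPS arrays. It stepped down without overlap. The difference was -0.72 ± 0.08 in TSKM-3D cells against fibroblasts (limma adjusted p = 9.16e-06), and Tcf7l2 fell in the other 2 comparisons, with differences of -1.20 ± 0.08 in iPS cells against TSKM-3D cells and -1.92 ± 0.08 in iPS cells against fibroblasts (3.8-fold; limma adjusted p = 9.29e-08 and 1.12e-09). The second step exceeded the first by 0.48 on the log2 scale (-0.48 ± 0.13; limma adjusted p = 0.0114). A single row was read for the gene, so transcripts that start at its second window, where the core was found, were not told apart from the rest.

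Lef1 read 6.02, 5.87 and 6.08 on the fibroblast arrays, 5.96, 6.08 and 5.94 on the TSKM-3D arrays and 6.48, 6.27 and 6.70 on the iPS arrays. Fibroblast and TSKM-3D arrays overlapped, and the iPS arrays stood slightly above both. The differences were 0.00 ± 0.11 for TSKM-3D cells against fibroblasts (limma adjusted p = 0.977) and 0.49 ± 0.11 for iPS cells against fibroblasts (limma adjusted p = 0.00222), so Lef1 was called in no comparison. Its level lay near the median of all rows, which was 6.014 to 6.231 on the 9 arrays, and background signal was not analysed here.

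Of 13 TCF and beta-catenin cofactor genes 4 were lower and 1 higher in iPS cells against fibroblasts. Over all genes 13.8% were called lower and 7.63% higher. Tle4, a Groucho co-repressor gene, was the one of the 13 that rose, by 2.71 ± 0.10 (9.66 in iPS cells and 6.95 in fibroblasts; limma adjusted p = 6.04e-10). Bcl9 and Bcl9l, whose proteins tie beta-catenin to the transcription machinery, fell, with differences of -1.51 ± 0.09 and -1.60 ± 0.09, as did the co-repressor gene Ctbp1 at -1.64 ± 0.07 (limma adjusted p at most 2.21e-08). Of 5 genes known in mouse embryonic stem cells to be held down by Tcf7l1, 5 rose in iPS cells against TSKM-3D cells. Their median difference was 5.54, beside -0.01 over all genes and 5.38 over the 10 pluripotency markers, of which 10 rose. The share of all genes called higher there was 6.48%. Esrrb rose by 5.54 ± 0.13, Tfcp2l1 by 5.85 ± 0.10 and Nanog by 6.72 ± 0.10 (limma adjusted p at most 4.43e-11). The TSKM-3D means of these 3 genes (5.33, 5.59 and 5.65) lay below the median of all rows, so the sizes are uncertain. In TSKM-3D cells against fibroblasts 0 of the 5 were called, where 3.25% of all genes were called higher and 7.58% lower. A limma p under 0.05 was found for 1, Nr5a2, also after adjustment (limma adjusted p = 0.00183), under 2-fold. All 5 are themselves genes of pluripotent cells, 2 of them (Esrrb and Nanog) on the marker list too, so their rise cannot be told apart from that of pluripotency genes as a whole.

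**Figure D3:**
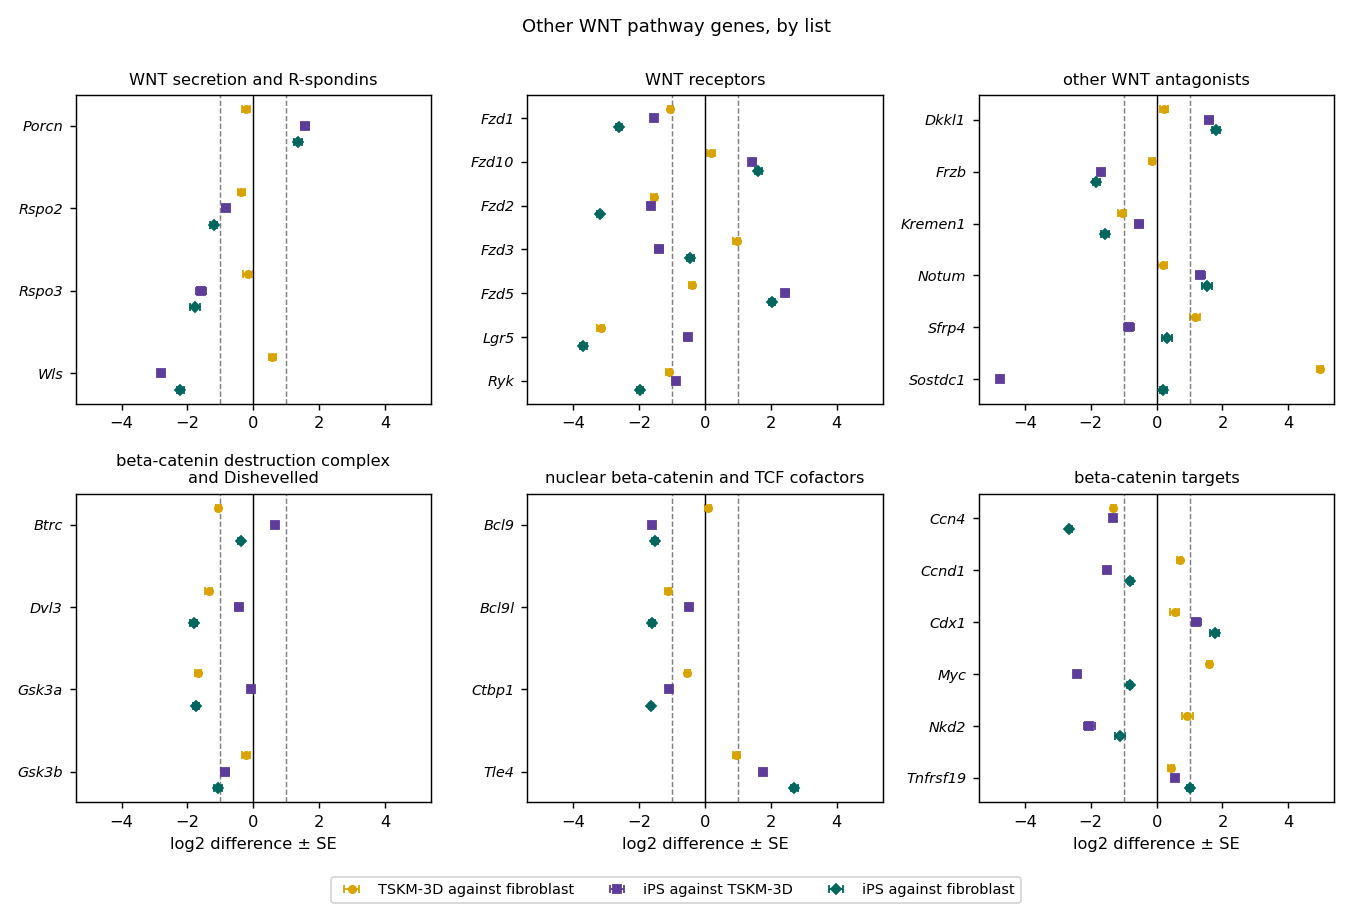
Difference in log2 expression value (x axes, with SE bars) of other WNT pathway genes, in 6 lists, in the 3 comparisons; symbols are circles for TSKM-3D cells against fibroblasts, squares for iPS cells against TSKM-3D cells and diamonds for iPS cells against fibroblasts, and dashed lines mark 2-fold. Each panel draws only part of its list, chosen by the rule of up to 3 largest rises and falls per comparison among called genes. Genes called in no comparison are not drawn. Sostdc1 has its 2 steps at 4.96 and -4.76, and Lgr5 lies far left of 0 at the first step. Wls and Porcn lie on opposite sides of 0 in iPS cells against TSKM-3D cells.

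Patterns were also compared by the root mean square difference over the 9 arrays after each gene's own mean was taken off. Among the members Sfrp1 and Tcf7l2 were the closest pair, at 0.17, then Dkk2 and Tcf7l2 at 0.26 and Sfrp2 and Dkk2 at 0.33. Wnt5a and Axin2 were the furthest apart, at 1.95. Over all genes the 2 nearest to Wnt5a were Capn2 (0.08) and Runx1 (0.09), those nearest to Dkk3 were Romo1 (0.11) and Mdfic (0.12), and those nearest to Tcf7l1 were Anxa11 (0.11) and Tnfrsf22 (0.12). Anxa11 had the same dip as Tcf7l1, with group means of 9.90 in fibroblasts, 8.10 in TSKM-3D cells and 9.36 in iPS cells. For Axin2 the nearest were Pawr (0.09) and Ccdc88c (0.11), with Pawr at 7.92, 8.43 and 9.36 in the same order of groups. For Sfrp1 they were Rftn2 and Kctd15, for Sfrp2 Mgp and Hacd4, for Dkk2 Tmem198b and Ifngr2, for Tcf7l2 Sec24d and Invs, and for Lef1 Rasd2 and Klk10, at 0.05 to 0.18. With 9 arrays in 3 groups, these are likenesses of a 3-level pattern.

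Of the marker lists, the fibroblast markers and the smooth muscle markers stepped down in mean level as the members did. In both lists the means on single arrays did not overlap between groups. The mean over 10 fibroblast markers was 11.54 to 11.63 on fibroblast arrays, 10.88 to 10.90 on TSKM-3D arrays and 8.97 to 9.13 on iPS arrays, and over the 9 members it was 8.79 to 8.91, 8.03 to 8.05 and 7.34 to 7.46 in the same order. Single fibroblast markers differed in the first step, in TSKM-3D cells against fibroblasts: Thy1, Pdgfra, Pdgfrb and S100a4 fell, Twist1 rose by 1.24, the other 5 lay between -0.55 and 0.60, and the list's median was -0.26. Of the 10, 7 fell in iPS cells against TSKM-3D cells, where 8.57% of all genes were called lower, and the list's median was -1.63. Fibroblast genes were still bright on iPS arrays, with Col1a1 at 11.47, and the labels name feeder fibroblasts for this group alone. The part of remaining feeder cells in the iPS readings, such as 10.01 for Sfrp1, was not tested. Of 10 macrophage markers 3 were lower in TSKM-3D cells against fibroblasts, with list means of 5.56 to 5.72 on TSKM-3D arrays and 6.77 to 6.93 on fibroblast arrays. Lyz2 averaged 5.17 in TSKM-3D cells and 9.18 in fibroblasts. Over all genes 7.58% were called lower in that comparison. No macrophage marker was called lower in iPS cells against TSKM-3D cells and Cd68 rose by 1.92, with a list median of 0.12. The part of these markers in the changes of the members was not tested. Of 5 keratinocyte markers 0 were called in TSKM-3D cells against fibroblasts, and 0 had a limma p under 0.05 before adjustment. In that comparison 0 of 5 endothelial markers were called. Before adjustment 2 had a limma p under 0.05, and Kdr also had an adjusted p under 0.05 (limma adjusted p = 0.00641). Of 5 smooth muscle markers 1, Cnn1, fell in the same comparison. Of the smooth muscle markers 3 fell in iPS cells against fibroblasts (Cnn1, Tagln and Acta2, with differences of -3.28, -1.74 and -1.25) and Des rose by 1.17, with a list median of -1.25. Over all genes 13.8% were called lower and 7.63% higher there. The part of the smooth muscle markers in the changes of the members was not tested.

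**Figure D4:**
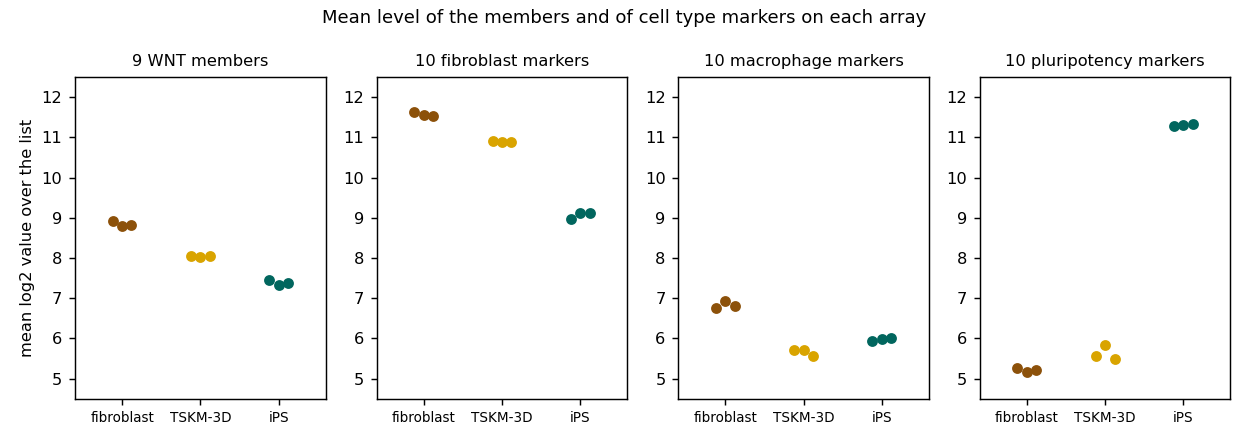
Mean log2 expression value (y axis) over the 9 WNT members and over 10 fibroblast, 10 macrophage and 10 pluripotency markers on each array (points), in fibroblasts, TSKM-3D cells and iPS cells. The members and the fibroblast markers step down over the groups, the macrophage markers are highest on fibroblast arrays, and the pluripotency markers are high on iPS arrays. The smooth muscle markers, whose mean also steps down, are not plotted.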

How the data were processed

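Expression in 9 samples, 3 in each group, was read on Affymetrix arrays. Per the labels' protocols, RNA was extracted with Trizol and labelled with a kit for terminal labelling. The authors deposited log2 values for 34760 rows. How they normalized them is not given in the sources used here, and the values were used as deposited. The number of arrays limits the precision.

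Gene names came from the platform annotation given with the data: 21640 rows had 1 symbol, 1321 several (not used) and 11799 were not listed in it. Each of 19937 genes was read on its row with the highest mean. One limma 3.58.1 model (R 4.3.3) covered the 3 groups, without covariates, with Benjamini-Hochberg adjustment over all genes. The test was run on simulated data with independent noise on each array. Those data held no technical repeats or exact ties, so the run cannot show whether p-values here are too low. The contrast of the second step minus the first was added after the data were seen. The members and the lists of pathway genes and markers were chosen with earlier results of these data known. Named genes are the members, the introduced factors, up to 3 largest rises and falls per list and comparison among called genes without overlap between arrays, and the 2 genes nearest each member. Dkk1, Ctnnb1, Axin1, Ror2, Lrp5, Lrp6, Sp5 and Col1a1 fall outside that rule and were chosen after their values were seen. Wnt2b, Tnks, Nr5a2 and Kdr fall outside it too and were named by their p-values. Kremen2 and Apcdd1 were named only as membrane proteins of their list.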

Additional observations from a re-analysis of the deposited data

How the results depend on the processing

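The counts over all genes and over the members, and each member's change, were recomputed under other scalings, row choices, filters, spread models and call rules, and without each array in turn. Counts of the pathway and marker lists were recomputed under the 2 other scalings only. Of 459 recomputed member changes 452 kept their direction and their side of the threshold. Many of them could not differ in size. Each member has 1 row, so row choices and filters left its difference unchanged. The spread models, the replicate block and leaving out an array of the group not compared did so too. This count is therefore no measure of robustness. The exceptions were Dkk2 in TSKM-3D cells against fibroblasts after quantile normalization (-0.99), Sfrp1 in iPS cells against TSKM-3D cells with array medians set equal (-1.02), Axin2 in the same comparison without the first iPS array (1.05), and Lef1 in TSKM-3D cells against fibroblasts, near 0 throughout, at -0.05 with array medians set equal, -0.06 after quantile normalization and -0.06 to 0.05 without 1 array. The cause was not tested. With the fold requirement dropped, 8886, 9088 and 10883 genes and 8, 9 and 9 members were called in TSKM-3D cells against fibroblasts, iPS cells against TSKM-3D cells and iPS cells against fibroblasts. Tested against 2-fold, 1140 genes and 2 members were called in the first of these, and 1931 genes and 2 members in the second. In the third, iPS cells against fibroblasts, 997 genes were called higher and 1976 lower, and of the members 1 higher and 6 lower. Over all array rows, which are more numerous, 3585, 4574 and 6953 were called. Setting array medians equal moved the median gene from 0.05 to -0.12 in iPS cells against fibroblasts. The labels do not say that replicate numbers pair arrays. Deviations of same-numbered arrays correlated at -0.09787 to 0.06183, and those of arrays with different numbers at -0.1318 to 0.1299. With so few arrays this cannot show that there was no pairing. With the replicate block 4, 5 and 7 members were called, as without it. Without 1 array 4, 5 to 6 and 7 members were called. Dim rows limit what a change can show. Where the lower mean of a change lay below the median of all rows, its size is uncertain.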
